A study of Mus musculus with 23 samples.

Results

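Matricellular proteins were compared at the RNA level between GL261 and CT2A, a pair of murine glioma lines grown as brain tumors. The 10 genes were chosen by name, with earlier results of these data known, out of 35576 genes with reads summed per gene. They were the 4 thrombospondins Thbs1, Thbs2, Thbs3 and Thbs4, periostin (Postn), tenascin-C (Tnc), Sparc and its relative Sparcl1, osteopontin (Spp1) and fibronectin (Fn1). Matricellular proteins are secreted into the matrix, where most serve less as scaffold than as signals. They bind integrins, CD36, CD47 or CD44, hold or release growth factors such as TGF-beta, and are known for their roles in wound repair, fibrosis, angiogenesis and tumor invasion. Fibronectin is itself a structural fiber, and several of the others bind to it. In the brain, Sparc, Sparcl1 and the thrombospondins are also known as astrocyte products that act on synapses, and Thbs1 is a classical inhibitor of angiogenesis.

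The study set a line that responds to checkpoint immunotherapy (GL261) against a resistant one (CT2A), and 23 RNA sequencing libraries of ex vivo tumors were analysed in 6 groups. All tumors grew in the brains of young adult female albino C57BL/6 mice after intracranial implantation of luciferase-transduced cells. Bulk tumors were 4 of GL261-luc2 and 4 of CT2A-luc. Sorted tumor cells came from other luciferase sublines of GL261 and CT2A and were enriched by magnetic bead selection, with 4 and 3 tumors of cells grown as adherent cultures and 3 and 5 tumors labelled as neurosphere. Each line is 1 established cell line with its own reporters, so a difference between lines is a difference between these sublines. By the study's methods, more GL261-luc2 than CT2A-luc cells were implanted for bulk tumors, and more again of the sublines that were sorted. The number of implanted cells thus differs with the line in bulk tumors and between bulk and sorted libraries. The 5 CT2A neurosphere libraries carry a GL261 name in their titles, but their descriptions and cell line labels say CT2A, and they were grouped by the latter.

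Libraries held 34622622 to 42608400 estimated reads in GL261 bulk tumors, 9590096 to 9853530 in CT2A bulk tumors and 7395846 to 15263587 in sorted cells. Bulk libraries were read as 150-base and sorted libraries as 37-base pairs, and they also differ in the subline. The study names different kits and instruments for them, but the labels give a single kit, so a difference in kit is not settled. Levels within a gene are given as CPM, counts scaled to library size by TMM over all libraries, and levels between genes as TPM, which take account of length. Differences are log2 fold changes with their standard error (SE) from the quasi-likelihood test of edgeR, and a gene passed the test at a Benjamini-Hochberg adjusted p under 0.05 over all genes tested. Replicates are separate tumor samples by their labels, and p-values measure only the spread between these samples.

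The clearest difference in make-up between the lines lay in the exons that fibronectin transcripts held, and these sequences are shown for that reason. The annotation (GENCODE M21, GRCm38) lets full-length coding transcripts of Fn1 hold or skip 2 exons that keep the reading frame. They have the order and lengths of extra domain B (EDB, 273 bases) and extra domain A (EDA, 270 bases), the domains that mark the cellular form of fibronectin made in embryos, wounds and tumors, whereas plasma fibronectin lacks both. The EDB exon lies at chr1:71613763-71614035 and the EDA exon at chr1:71603660-71603929, both on the minus strand. An exon of Postn near its 3′ end (81 bases, chr3:54380412-54380492, plus strand) and a fibronectin type III repeat exon of Tnc (273 bases, chr4:63984460-63984732, minus strand) are skipped in the same way. Each sequence is read 5′ to 3′ from the annotated transcript, with the exon in capitals and 12 bases of each neighbouring exon in lower case.
Fn1 EDB exon: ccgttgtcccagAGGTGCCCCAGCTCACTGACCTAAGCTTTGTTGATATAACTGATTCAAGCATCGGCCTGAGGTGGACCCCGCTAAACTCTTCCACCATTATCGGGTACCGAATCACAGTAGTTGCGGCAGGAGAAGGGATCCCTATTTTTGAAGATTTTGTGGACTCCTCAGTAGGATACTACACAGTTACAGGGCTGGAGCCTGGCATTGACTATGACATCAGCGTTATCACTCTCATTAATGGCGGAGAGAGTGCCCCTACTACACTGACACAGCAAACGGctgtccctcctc
Fn1 EDA exon: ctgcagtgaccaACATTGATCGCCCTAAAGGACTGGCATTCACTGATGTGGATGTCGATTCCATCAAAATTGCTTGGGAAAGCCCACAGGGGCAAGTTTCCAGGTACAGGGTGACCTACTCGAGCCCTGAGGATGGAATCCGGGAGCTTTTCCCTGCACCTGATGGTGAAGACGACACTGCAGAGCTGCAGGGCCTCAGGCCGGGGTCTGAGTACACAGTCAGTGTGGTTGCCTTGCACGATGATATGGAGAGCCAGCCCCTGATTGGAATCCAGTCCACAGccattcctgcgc
Postn 81-base exon: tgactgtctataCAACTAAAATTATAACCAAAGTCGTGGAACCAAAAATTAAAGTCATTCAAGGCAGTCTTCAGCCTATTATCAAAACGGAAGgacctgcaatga
Tnc 273-base exon: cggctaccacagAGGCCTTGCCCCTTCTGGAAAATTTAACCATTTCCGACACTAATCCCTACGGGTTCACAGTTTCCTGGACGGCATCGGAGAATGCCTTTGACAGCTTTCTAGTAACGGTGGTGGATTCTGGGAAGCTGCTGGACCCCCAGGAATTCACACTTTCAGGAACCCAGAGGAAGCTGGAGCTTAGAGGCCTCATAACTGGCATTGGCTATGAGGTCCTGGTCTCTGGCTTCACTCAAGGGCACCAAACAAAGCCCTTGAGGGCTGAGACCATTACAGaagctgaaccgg

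Fn1 itself was among the genes with the highest levels and moved little between the lines, while its exons did not stay the same. The EDB exon was in 19.1, 28.7, 19.3 and 23.8% of the TPM of full-length coding Fn1 transcripts in the GL261 bulk tumors, and in 73.5, 65.5, 54.9 and 61.6% in the CT2A bulk tumors. In sorted cells of adherent lines the shares were 14.1, 11.1, 13.5 and 17.7% in GL261 and 83.9, 83.8 and 78.7% in CT2A. In neurosphere tumors they were 8.10, 12.0 and 6.43% in GL261 and 70.7, 78.4, 64.8, 71.4 and 75.2% in CT2A. No GL261 library reached the lowest CT2A library in any of the 3 experiments.

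The EDA exon followed the same split, but not independently, since Fn1-201, the only full-length coding transcript with EDB, also holds EDA. The EDA share ranged from 24.7 to 39.8% in GL261 bulk tumors and from 82.9 to 87.1% in CT2A bulk tumors. It ranged from 13.5 to 19.0% against 85.5 to 89.9% in sorted cells, and from 10.7 to 12.0% against 80.0 to 89.9% in neurosphere tumors. The 5 CT2A neurosphere libraries with a GL261 name in their titles thus had EDB and EDA shares within or near the range of the other CT2A libraries and far from every GL261 library. Of the 7 full-length transcripts that span both exons, Fn1-201 alone holds EDB, and 4, Fn1-201 among them, hold EDA. The EDB share is thus counted in full within the EDA share. Fn1-201 took a median of 73.8% of all Fn1 TPM in CT2A sorted cells and 12.3% in GL261 sorted cells, where Fn1-203, which holds neither exon, led with 52.8%. The shares rest on 8803 to 73034 estimated reads per library, but reads of similar transcripts are divided by Salmon's model, so they are given as a description with no test.

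**Figure D1:**
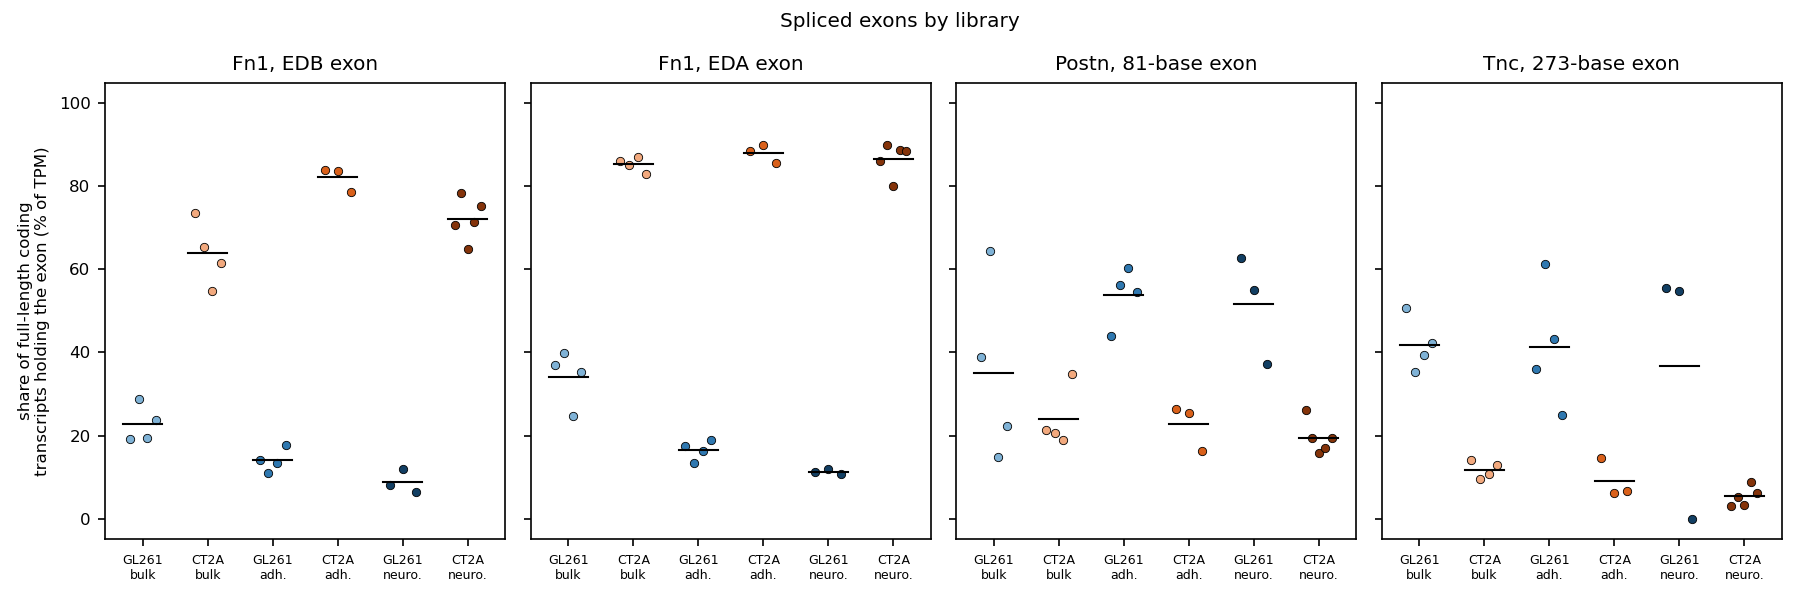
Share of the TPM of full-length coding transcripts that held each exon (y axis, percent) in every library of the 6 groups (x axis; adh., sorted cells of adherent lines; neuro., sorted cells of neurosphere tumors), with the group mean as a bar. Fn1 EDB shares lie at or under 28.7% in all GL261 libraries and at or above 54.9% in all CT2A libraries, while the Postn shares overlap between the lines in bulk tumors and the Tnc share of 1 GL261 neurosphere library is 0.

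The exons of Tnc and Postn leaned the other way, again as shares of the TPM of full-length coding transcripts that span the exon. The extra type III repeat of Tnc, held by Tnc-203 alone, was in 35.2 to 50.6% of it in GL261 bulk tumors and in 9.56 to 14.0% in CT2A bulk tumors, with 760 to 3644 reads behind each value. CT2A sorted cells had 6.21 to 14.5% and CT2A neurosphere tumors 3.10 to 8.91%. GL261 sorted libraries held only 55 to 219 Tnc reads and GL261 neurosphere libraries 68 to 147, and their shares scattered from 24.9 to 61.2% and from 0 to 55.5%. The Postn exon of 81 bases was in 43.9 to 60.3% in GL261 sorted cells against 16.4 to 26.5% in CT2A sorted cells, and in 37.3 to 62.8% against 15.8 to 26.1% in neurosphere tumors. The GL261 shares rest on 248 to 460 reads in sorted cells and 434 to 805 in neurosphere tumors. In CT2A there were 9271 to 10461 and 5646 to 12192 reads. In bulk tumors the Postn shares overlapped, with 14.8 to 64.5% in GL261, on 196 to 374 reads, and 18.9 to 34.8% in CT2A. Postn-204 holds neither this exon nor a second skipped exon of 84 bases. It took a median of 36.1% of all Postn TPM in CT2A sorted cells. In every GL261 sorted and neurosphere library it was listed at 0, on the low read numbers given above. In bulk tumors its median was 26.1% in GL261, with 0 to 60.7%, and 40.3% in CT2A. Transcript splits also followed the library type: Sparc-201 took a median of 62.2% of Sparc TPM in GL261 bulk tumors and 15.8% in GL261 sorted cells, with 65.6% and 15.1% in CT2A. For this reason the exon shares of the lines were compared within each experiment. Ranges over all libraries of a line, also those set beside the CT2A neurosphere libraries with a GL261 name, span library types and are description only.

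In sorted cells of adherent lines the genes differed widely in level. In GL261 sorted cells the mean TPM was 774 for Sparc, 651 for Fn1, 157 for Sparcl1 and 126 for Spp1, and no other gene exceeded 21.6. In CT2A sorted cells Spp1 stood at 995 TPM, Sparc at 836, Postn at 643, Fn1 at 419, Thbs1 at 262, Thbs2 at 157, Sparcl1 at 111 and Thbs3 at 103. Tnc had 28.2 TPM there against 3.68 in GL261, and Thbs4 was near 0 in both. The order differed in other groups: Spp1 led in GL261 neurosphere tumors at 1218 TPM, and Postn was at 142 TPM in CT2A bulk tumors, below Sparcl1 at 343 and Fn1 at 286.

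**Figure D2:**
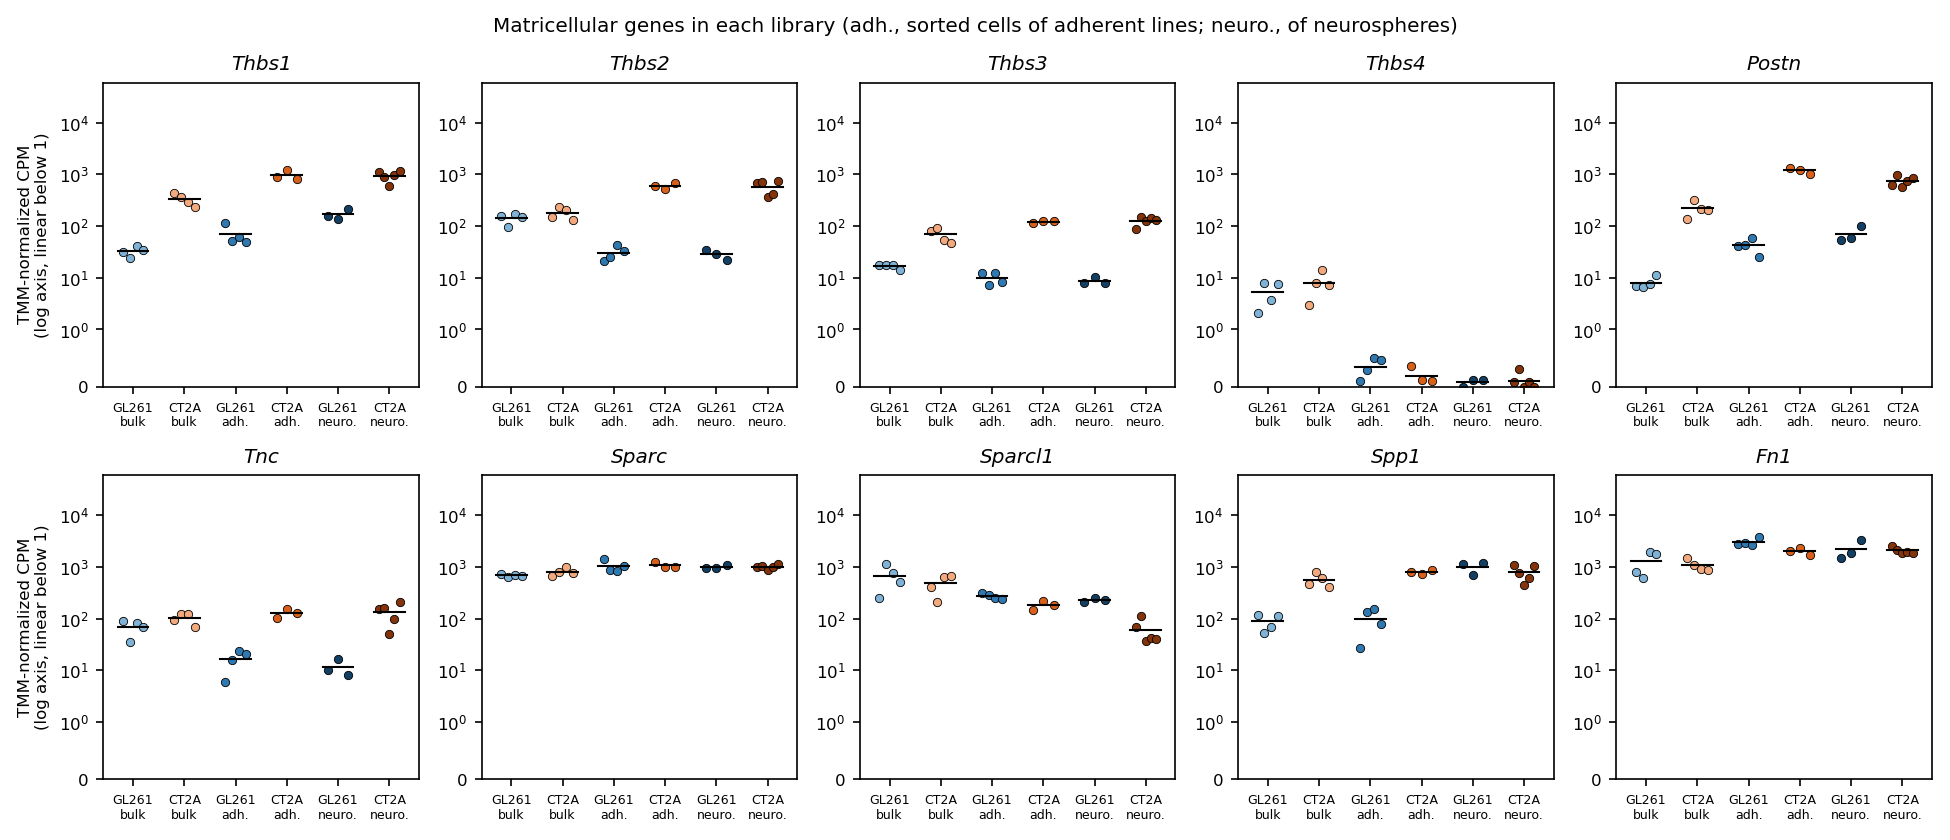
TMM-normalized CPM (y axis, log scale that is linear below 1) of the 10 genes in each library of the 6 groups (x axis), with the group mean as a bar. Thbs1, Thbs3 and Postn are higher in every CT2A library than in every GL261 library of the same experiment, Sparc lies between 625 and 1413 CPM in every library, and Thbs4 is above 1 CPM in bulk tumors only.

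In bulk tumors Postn, Thbs1, Spp1 and Thbs3 were higher in CT2A. Of the 10 genes, these 4 passed the test, all upward, while 23.4% of the 16434 genes tested passed it in either direction and 11.4% upward. Postn, a fasciclin-domain protein that binds integrins and collagen, was at 6.84, 6.57, 7.65 and 11.1 CPM in the GL261 tumors and at 139, 318, 217 and 204 CPM in the CT2A tumors. The groups were far apart, with a log2 fold change of 4.84 (SE 0.33, adjusted p = 0.000163, edgeR). Thbs1, which activates latent TGF-beta and binds CD36 and CD47, was at 32.0, 24.3, 40.9 and 35.1 CPM in GL261 and at 433, 367, 290 and 239 CPM in CT2A. Every CT2A tumor again exceeded every GL261 tumor, a separation that 29.5% of all genes tested had. The log2 fold change was 3.40 (SE 0.28, adjusted p = 0.000305, edgeR).

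Spp1, an integrin and CD44 ligand made by many tumor cells and macrophages, was at 120, 51.8, 69.6 and 113 CPM in GL261 and at 473, 794, 602 and 408 CPM in CT2A bulk tumors. Its groups did not overlap, and the log2 fold change was 2.73 (SE 0.38, adjusted p = 0.00202, edgeR). The 13 macrophage and microglia markers summed to 812 to 1217 CPM in GL261 and 739 to 1233 CPM in CT2A bulk tumors, and 0 of 13 passed the test (edgeR). Thbs3, a pentameric thrombospondin of matrix and cartilage, was at 14.4 to 18.0 CPM in GL261 and 47.9 to 93.5 CPM in CT2A, with a log2 fold change of 2.12 (SE 0.25, adjusted p = 0.00108, edgeR).

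The other 6 genes did not pass the test in bulk tumors. The log2 fold changes were 0.39 (SE 0.27) for Thbs2, 0.70 (SE 0.52) for Thbs4, 0.62 (SE 0.35) for Tnc, 0.29 (SE 0.18) for Sparc, -0.32 (SE 0.46) for Sparcl1 and -0.17 (SE 0.41) for Fn1. Fn1 was at 784, 612, 1947 and 1796 CPM in GL261 and at 1492, 1074, 910 and 853 CPM in CT2A, overlapping ranges of which the GL261 one was the wider. The 95% intervals of the log2 fold changes reached 1.01 for Thbs2, 1.89 for Thbs4 and 1.42 for Tnc at the upper end. Sparc passed with RSEM expected counts in place of the Salmon estimates, with a log2 fold change of 0.72 (adjusted p = 0.0095, edgeR). Markers of pericytes and smooth muscle, cells that also make periostin and thrombospondins, summed to 153 to 204 CPM in GL261 and 355 to 472 CPM in CT2A bulk tumors, with 5 of 10 higher and 1 lower (Des, -1.73, SE 0.37) in CT2A. In sorted cells of adherent lines the same markers summed to 362 to 483 CPM in GL261 and 689 to 835 CPM in CT2A. Of 9 tested there, 2 were higher in CT2A (Pdgfrb, 6.14, SE 0.28, and Notch3, 3.02, SE 0.40) and 3 were lower. Pdgfrb (2.90, SE 0.19) and Notch3 (1.85, SE 0.25) were also among those higher in bulk tumors. The part of these cells in the bulk differences was not tested, and in bulk tissue fewer cells of a type and less RNA per cell cannot be told apart.

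**Figure D3:**
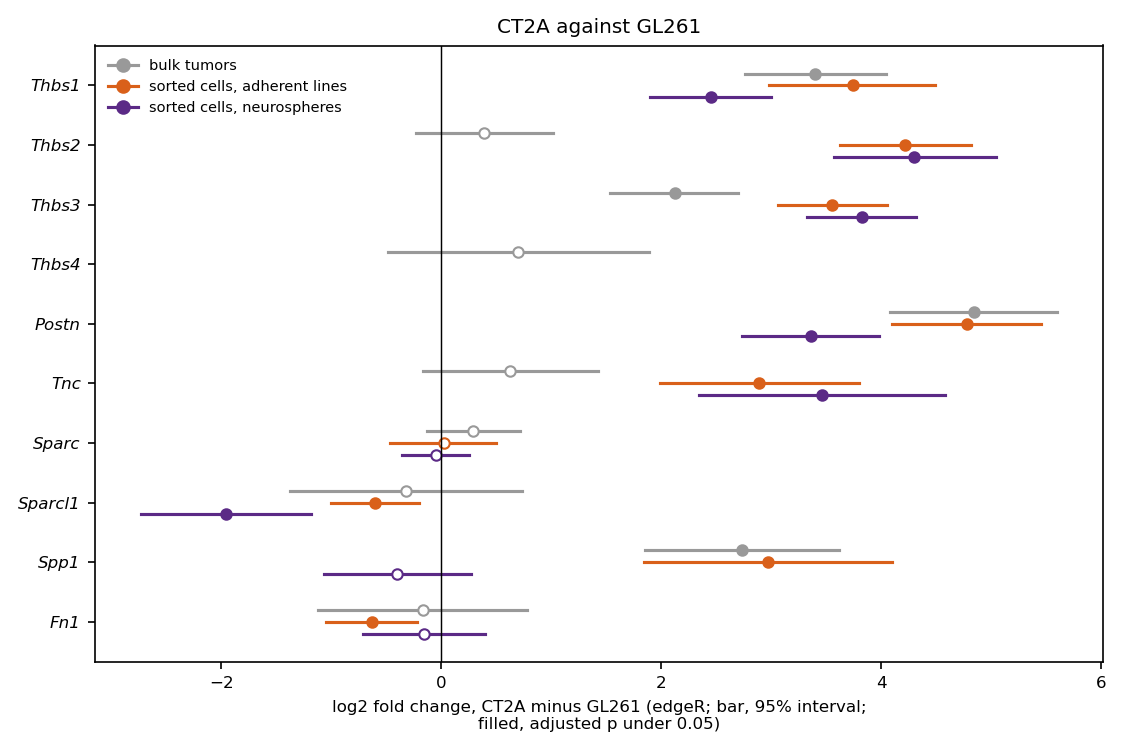
Log2 fold change of CT2A minus GL261 (x axis) of each gene (y axis) in bulk tumors, sorted cells of adherent lines and sorted cells of neurosphere tumors, with the 95% interval as a bar and filled points for an adjusted p under 0.05. Thbs1, Thbs3 and Postn have filled points to the right of 0 in all 3 experiments, Thbs2 and Tnc in the sorted libraries only, Spp1 in bulk tumors and adherent lines only, and Thbs4 was tested in bulk tumors only.

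In sorted tumor cells of adherent lines 6 genes were higher in CT2A, namely Postn, Thbs2, Thbs1, Thbs3, Spp1 and Tnc, and Sparcl1 and Fn1 were lower. Of 9 genes tested 8 passed, against 50.8% of all 13789 genes tested, with 24.0% upward and 26.8% downward. Postn was at 42.0, 43.0, 59.2 and 24.8 CPM in GL261 and at 1326, 1234 and 1039 CPM in CT2A (log2 fold change 4.78, SE 0.29, adjusted p = 7.22e-06, edgeR). Thbs2, an inhibitor of angiogenesis that shares the receptors of Thbs1, was at 21.0, 25.5, 43.2 and 33.2 CPM in GL261 and at 584, 518 and 675 CPM in CT2A. Its groups were far apart, with a log2 fold change of 4.21 (SE 0.26, adjusted p = 7.07e-06, edgeR), whereas in bulk tumors they had overlapped. Over all genes tested in sorted cells, groups did not overlap for 58.3%.

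Thbs1 was at 116, 52.1, 62.4 and 49.7 CPM in sorted GL261 cells and at 872, 1203 and 824 CPM in CT2A, a log2 fold change of 3.74 (SE 0.33, adjusted p = 4.23e-05, edgeR). Markers of platelets, which store Thbs1, were low but moved with it, at 1.73 to 6.29 CPM in sum in GL261 and 15.0 to 16.8 CPM in CT2A. Of 3 tested 1 was higher (Gp1bb, 4.79, SE 0.48), and Gp9 was at 0 in both groups. In bulk tumors, where Thbs1 was also higher in CT2A, the platelet sums overlapped, at 3.90 to 11.5 CPM in GL261 and 5.91 to 9.85 CPM in CT2A. There 0 of 3 markers passed. The part of platelets in these Thbs1 differences was not tested. Thbs3 rose from 7.11 to 12.5 CPM in GL261 to 115 to 128 CPM in CT2A (log2 fold change 3.55, SE 0.21, adjusted p = 6.39e-06, edgeR). Tnc, a glycoprotein of embryonic and tumor matrix, was at 5.95, 16.1, 23.5 and 20.6 CPM in GL261 and 103, 151 and 128 CPM in CT2A. That is a log2 fold change of 2.89 (SE 0.39, adjusted p = 0.000438, edgeR), with no overlap. Spp1 was at 27.6, 133, 151 and 80.1 CPM in GL261 and at 814, 714 and 874 CPM in CT2A (log2 fold change 2.97, SE 0.49, adjusted p = 0.00125, edgeR). The lowest Spp1 library among GL261 sorted cells was also the one with the lowest macrophage marker sum, 265 CPM against up to 1184 CPM in the group. CT2A sorted cells had macrophage marker sums of 789 to 1554 CPM, with 0 of 13 markers higher and 1 lower than in GL261. The part of these cells was not tested.

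The decreases in sorted CT2A cells were small. Sparcl1 was at 315, 283, 246 and 236 CPM in GL261 and 148, 220 and 187 CPM in CT2A (log2 fold change -0.60, SE 0.17, adjusted p = 0.0197, edgeR). Fn1 was at 2789, 2910, 2653 and 3712 CPM against 1998, 2325 and 1724 CPM (log2 fold change -0.63, SE 0.18, adjusted p = 0.0185, edgeR). Both calls were lost in the fit over all 6 groups (adjusted p = 0.26 and 0.121) and without CT2A library 69 (log2 fold change -0.46 and -0.63, adjusted p = 0.0806 and 0.0604) or 71 (-0.59 and -0.52, adjusted p = 0.0668 and 0.0768). Endothelial markers moved with these decreases (125 to 580 CPM against 102 to 165 CPM in sum, 6 of 10 lower), as did oligodendrocyte markers (520 to 1009 CPM against 245 to 362 CPM, 5 of 8 lower), and their part was not tested. Sparc, at 817 to 1413 CPM in GL261 and 976 to 1235 CPM in CT2A, had a log2 fold change of 0.02 with a 95% interval of -0.47 to 0.50. Thbs4 had 1 to 5 reads in each sorted library of the adherent lines and was too low to be tested.

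Sorted cells of neurosphere tumors gave the same direction for Thbs1, Thbs2, Thbs3, Postn and Tnc, but not for Spp1. Thbs2, Thbs3, Tnc, Postn and Thbs1 were higher in CT2A and Sparcl1 was lower, 6 of 9 genes tested, against 59.6% of 13733 genes (30.0% upward, 29.6% downward). Thbs2 was at 34.6, 28.8 and 22.2 CPM in GL261 and at 672, 706, 359, 410 and 760 CPM in CT2A (log2 fold change 4.30, SE 0.33, adjusted p = 3.15e-06, edgeR). Thbs3 was at 7.92 to 10.3 CPM against 86.6 to 150 CPM (log2 fold change 3.82, SE 0.22). Tnc was at 10.1, 16.9 and 8.28 CPM against 153, 161, 49.4, 99.3 and 209 CPM (log2 fold change 3.46, SE 0.50, adjusted p = 0.000269, edgeR). Postn was at 52.8, 60.1 and 100 CPM against 619, 969, 581, 738 and 850 CPM (log2 fold change 3.36, SE 0.28), and Thbs1 at 155, 140 and 212 CPM against 609 to 1166 CPM (log2 fold change 2.45, SE 0.25). None of these groups overlapped, and neither did those of 58.5% of all genes tested.

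Sparcl1, a counter-adhesive protein of astrocytes and vessels, was at 206, 245 and 229 CPM in GL261 neurosphere tumors and at 68.5, 113, 36.1, 42.7 and 40.6 CPM in CT2A. The log2 fold change was -1.96 (SE 0.34, adjusted p = 0.000871, edgeR), and the groups did not overlap. Astrocyte markers moved with it, summing to 556 to 674 CPM in GL261 and 103 to 373 CPM in CT2A with 7 of 8 lower, and so did endothelial markers, at 340 to 415 CPM against 50.6 to 147 CPM with 8 of 10 lower, and oligodendrocyte markers, with 6 of 8 lower. All astrocyte and endothelial markers had reads in every library, and their part in the Sparcl1 difference was not tested.

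Spp1 was at 1148, 711 and 1189 CPM in GL261 neurosphere tumors and at 1097, 754, 440, 615 and 1062 CPM in CT2A, overlapping ranges with a log2 fold change of -0.40 (SE 0.30, adjusted p = 0.273, edgeR). Sparc (log2 fold change -0.05, SE 0.14) and Fn1 (-0.16, SE 0.25) also did not pass. Thbs4 had at most 4 reads in a library.

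Neurosphere and adherent tumors of the same line were compared next, and Spp1 differed between them in GL261. It was 10.6-fold higher in neurosphere tumors (log2 fold change 3.40, SE 0.52, adjusted p = 0.00956, edgeR), and every neurosphere library, at 711 CPM or more, exceeded every adherent library, at 151 CPM or less, a separation that 26.2% of all genes tested had. Thbs1 was also higher, at 140 to 212 CPM against 49.7 to 116 CPM (2.47-fold, SE 0.31 on the log2 scale, adjusted p = 0.0375, edgeR). Platelet markers rose in sum here too, at 22.9 to 35.6 CPM against 1.73 to 6.29 CPM. Of 2 tested 1 was higher (Pf4, 4.44, SE 0.68), and Itga2b did not pass (-0.66, SE 0.43). In CT2A neurosphere tumors, where Thbs1 was higher than in GL261, the platelet sum was 12.1 to 24.7 CPM. There 2 of 3 platelet markers tested were higher than in GL261 and 1 was lower (Pf4, -2.35, SE 0.55). The part of platelets was not tested. Spp1 and Thbs1 were 2 of 9 genes tested, against 8.53% of 13675 genes (7.58% upward, 0.951% downward). The Thbs1 call was lost when any of the libraries 82, 83, 84, 89, 90 or 91 was left out, with log2 fold changes of 1.13 to 1.41 and adjusted p-values of 0.0856 to 0.126 (edgeR). That of Spp1 held in each of the 7 such fits, with log2 fold changes of 3.08 to 3.69 and adjusted p-values of up to 0.048.

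All 13 macrophage and microglia markers rose with Spp1 and Thbs1 between the GL261 culture forms. Their sums were 5396 to 8601 CPM in neurosphere and 265 to 1184 CPM in adherent libraries. All 13 were also lower in CT2A than in GL261 neurosphere libraries, where CT2A sums were 565 to 3071 CPM. Spp1 did not pass in that comparison (log2 fold change -0.40, SE 0.30), and Thbs1 was higher in CT2A (2.45, SE 0.25). Among CT2A neurosphere libraries, library 59 had the highest marker sum, 3071 CPM, and the lowest Spp1 level, 440 CPM. Library 59 was also the lowest of its group for Thbs1 (609 CPM), Thbs2 (359 CPM), Postn (581 CPM) and Tnc (49.4 CPM). It was likewise the lowest for Sparc, Sparcl1 and the astrocyte marker sum (103 CPM), but not for Thbs3 or Fn1. The part of macrophages and microglia in the Spp1 and Thbs1 values was not tested.

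**Figure D4:**
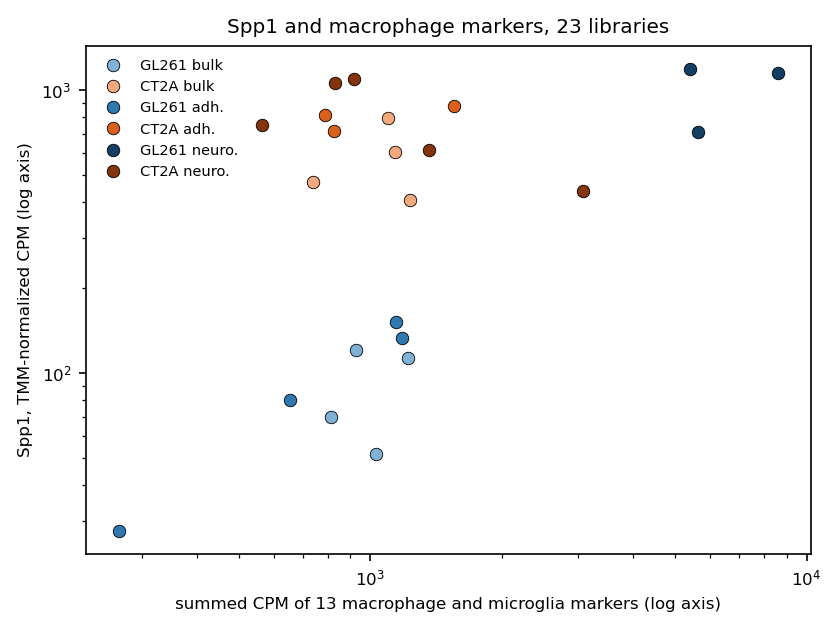
Spp1 level (y axis, TMM-normalized CPM, log scale) against the summed CPM of 13 macrophage and microglia markers (x axis, log scale) in the 23 libraries, colored by group. The 3 GL261 neurosphere libraries stand apart at marker sums of 5396 CPM or more.

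In CT2A none of the 9 genes tested passed between neurosphere and adherent tumors with edgeR, where 22 of 13142 genes (0.167%) did, 0.0533% upward and 0.114% downward. Before adjustment 2 were under 0.05, Sparcl1 (log2 fold change -1.65, SE 0.35, adjusted p = 0.112, edgeR) and Postn (-0.71, SE 0.18, adjusted p = 0.188), and DESeq2 called both (adjusted p = 0.000322 and 0.0132). Without CT2A neurosphere library 58 edgeR called Sparcl1 too, at -2.01 (adjusted p = 0.0317). Astrocyte markers were at 103 to 373 CPM in sum in neurosphere and 472 to 637 CPM in adherent tumors, with 1 of 8 lower (Slc1a3, -3.31, SE 0.40) and a list median of -2.37 on the log2 scale, and their part was not tested. The other 7 genes had log2 fold changes between -0.13 and 0.05, with Thbs1 at 824 to 1203 CPM in adherent and 609 to 1166 CPM in neurosphere tumors.

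An interaction term tested if CT2A and GL261 were set apart to a different degree in the 2 culture forms. It passed for Spp1 (-3.41, SE 0.60, adjusted p = 0.00771, edgeR) and for Postn (-1.46, SE 0.38, adjusted p = 0.0324, edgeR), 2 of 9 genes, both downward, against 6.67% of 13824 genes (0.969% upward, 5.70% downward). The log2 fold change between lines went from 2.97 to -0.40 for Spp1 and from 4.78 to 3.36 for Postn. The Postn interaction missed the threshold without any of the libraries 81, 84, 69, 70, 71, 89, 90, 91 or 57, at -1.14 to -1.56 (adjusted p from 0.0501 to 0.0892). DESeq2 called 4 genes, adding Sparcl1 (-1.36) and Thbs1 (-1.29), and so did edgeR for Sparcl1 without library 58 (-1.76) and for Thbs1 without library 81 (-1.58).

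Sorted cells differed from bulk tumors of the same line in most of these genes, and Thbs2 and Tnc did so differently in the lines. Of the 10 genes, 8 passed in GL261, 4 in each direction, against 34.5% of 16265 genes (14.4% upward, 20.1% downward). In CT2A 7 passed, 5 upward and 2 downward, against 49.9% of 14701 genes (23% upward, 26.9% downward). In both lines Thbs1, Postn and Fn1 were higher in sorted cells. The log2 fold changes were 1.20 (SE 0.31) and 1.49 (SE 0.23) for Thbs1, 2.50 (SE 0.30) and 2.40 (SE 0.26) for Postn, and 1.34 (SE 0.39) and 0.84 (SE 0.22) for Fn1, in GL261 and CT2A in turn.

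Thbs4 and Sparcl1 were lower in sorted cells of both lines. Thbs4, a thrombospondin made by astrocytes and heart and muscle cells, was at 2.04 to 7.77 CPM in GL261 and 2.98 to 14.2 CPM in CT2A bulk tumors, and at or under 0.497 CPM in all sorted libraries, with fitted log2 fold changes of -3.80 (SE 0.62) and -5.33 (SE 0.74) that rest on 1 to 5 reads per sorted library. Sparcl1 had log2 fold changes of -1.16 (SE 0.39, adjusted p = 0.0477, edgeR) in GL261 and -1.45 (SE 0.39, adjusted p = 0.0162, edgeR) in CT2A. Neuron markers moved with both genes, at 156 to 3189 CPM and 428 to 2351 CPM in the bulk tumors against 15.0 to 59.0 CPM in sorted cells of adherent lines, with 9 of 9 lower in each line. Astrocyte markers did so as well, with 5 of 8 lower and 1 higher in GL261 and 7 of 8 lower in CT2A. The part of other cells in these changes was not tested. The sort, subline, number of implanted cells, read length and any difference in kit cannot be told apart.

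Groups did not overlap for 37.8% of all genes tested in GL261 and 55.0% in CT2A. Thbs2 fell in GL261, from 158, 95.6, 168 and 151 CPM in bulk tumors to 21.0 to 43.2 CPM in sorted cells (log2 fold change -2.11, SE 0.28, adjusted p = 0.00151, edgeR). In CT2A it rose, from 148, 236, 202 and 134 CPM to 518 to 675 CPM (log2 fold change 1.66, SE 0.20, adjusted p = 0.000788, edgeR). Tnc fell in GL261, from 88.7, 34.7, 83.8 and 68.6 CPM to 5.95 to 23.5 CPM (log2 fold change -1.96, SE 0.44, adjusted p = 0.01, edgeR), and in CT2A was at 70.2 to 124 CPM in bulk and 103 to 151 CPM in sorted cells (0.26, SE 0.22, adjusted p = 0.35). Thbs3 passed in CT2A alone (0.77, SE 0.23, adjusted p = 0.0257), with -0.64 (SE 0.25, adjusted p = 0.0741) in GL261.

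The interaction of line and sorting passed for these 3 genes and no other of the 10, all upward, against 13.5% of 15845 genes (7.67% upward, 5.80% downward). The line difference was larger in sorted cells by 3.93 for Thbs2 (SE 0.37, adjusted p = 2.61e-05, edgeR), 2.37 for Tnc (SE 0.53, adjusted p = 0.00963, edgeR) and 1.55 for Thbs3 (SE 0.34, adjusted p = 0.00788, edgeR), on the log2 scale, where the median of all genes was 0.12 and 57.0% of all calls were upward. With DESeq2 that median was 0 and the upward share 47.0%, and the same 3 genes were called. The calls of these 3 genes held in each of the 15 fits that left out a library. For Thbs1 and Postn the interaction was 0.44 (SE 0.42) and 0.05 (SE 0.41), and the sign of the latter turned in some fits. These comparisons share libraries, so the values of 1 experiment stand in several of them.

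**Figure D5:**
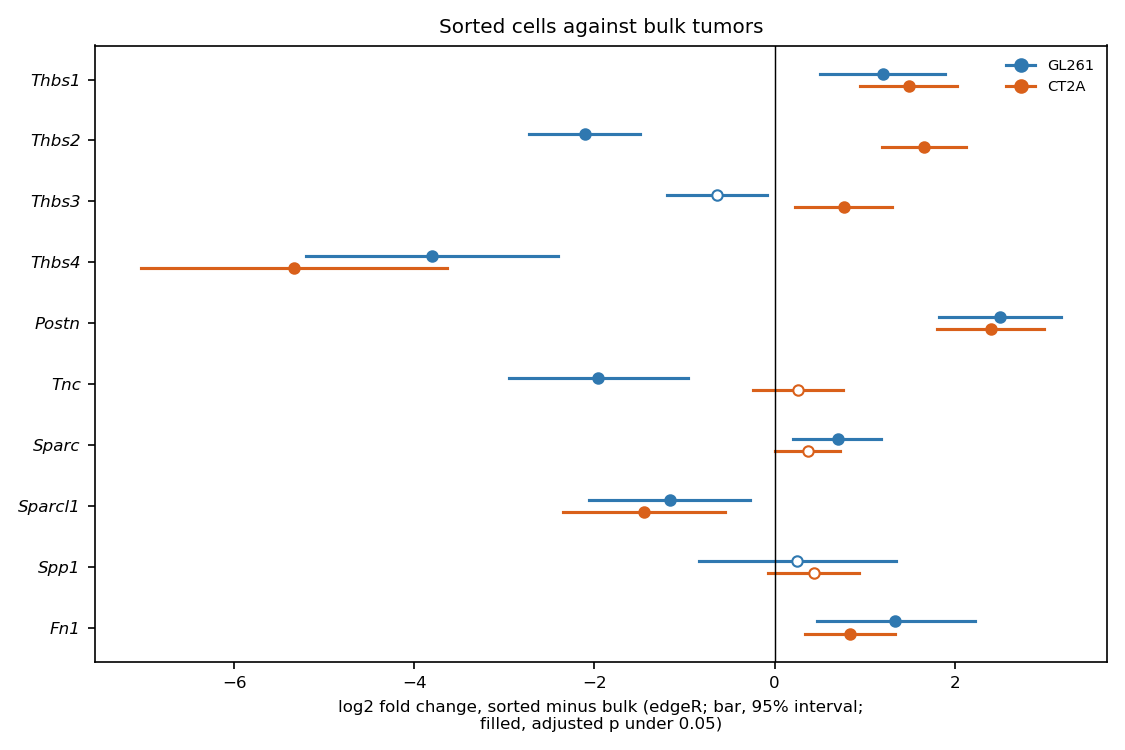
Log2 fold change of sorted cells of adherent lines minus bulk tumors (x axis) of each gene (y axis) in GL261 and in CT2A, with the 95% interval as a bar and filled points for an adjusted p under 0.05. Thbs2 lies at -2.11 in GL261 and at 1.66 in CT2A, while Thbs1 and Postn lie to the right of 0 and Thbs4 and Sparcl1 to the left in both lines.

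Several calls of sorted against bulk were fragile. In GL261, Sparc (log2 fold change 0.70, adjusted p = 0.0335, edgeR) was lost without library 412, 414, 417 or 84, Sparcl1 without any of 412, 414, 417, 81, 82, 83 or 84 (log2 fold changes of -0.81 to -1.28), and Fn1 without 82 or 84 (1.37 and 1.23). In CT2A, Thbs3 was lost without library 47, 69, 70 or 71 (0.65 to 0.81), Sparcl1 without 69 or 71 (-1.31 and -1.45) and Fn1 without 70 (0.72), while Sparc was called without 47 (0.47) and Spp1 without 40 (0.65). Thbs3 in GL261 was called without library 81 (-0.75), with DESeq2 and in the fit over all 6 groups.

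The receptors of these proteins were counted in the same comparisons. CT2A had 4 receptor genes at higher and 2 at lower levels of the 15 tested in bulk tumors, 7 and 3 of 15 in sorted cells, and 6 and 6 of 15 in neurosphere tumors, where 23.4, 50.8 and 59.6% of all genes tested passed. The bulk count of 6 was 3 without GL261 tumor 414 and 2 without CT2A tumor 39. The median log2 fold changes were 0.30, 0.71 and 0.36, against -0.05, -0.01 and 0.03 over all genes. Itga5, the alpha chain of the main fibronectin receptor, was higher in CT2A by 1.74 (SE 0.24) in bulk tumors, 1.75 (SE 0.18) in sorted cells and 0.84 (SE 0.23) in neurosphere tumors on the log2 scale. Itgb5, which pairs with the alpha V chain to bind periostin and osteopontin, was higher by 1.35 (SE 0.18) in bulk and 0.84 (SE 0.15) in neurosphere tumors and passed upward in sorted cells too. Cacna2d1, the calcium channel subunit to which thrombospondins bind on neurons, was higher by 6.82 (SE 0.44) in sorted cells and 5.64 (SE 0.36) in neurosphere tumors, and Itga8, an integrin chain that binds Tnc, Fn1 and Spp1, by 4.22 (SE 0.31) and 2.72 (SE 0.51). In bulk tumors neither passed, at 0.70 (SE 0.64) and 0.01 (SE 0.32). Lower in CT2A were Cd47, the thrombospondin receptor that also gives macrophages a signal not to engulf, at -0.60 (SE 0.15), -1.45 (SE 0.15) and -1.23 (SE 0.21) in bulk, sorted and neurosphere libraries, and Itga4, a chain of a fibronectin and osteopontin receptor of leukocytes, at -1.02 (SE 0.24), -1.88 (SE 0.45) and -2.03 (SE 0.23).

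Between culture forms, 4 of 15 receptors tested were higher and 1 lower in GL261 neurosphere tumors, among them Stab1, a scavenger receptor of macrophages that takes up Sparc (3.06, SE 0.54), where 8.53% of all genes passed. All 13 macrophage and microglia markers were higher in that comparison (median 3.03 on the log2 scale), and their part was not tested. In CT2A 0 of 15 passed with edgeR, against 0.167% of all genes. The GL261 count of 5 was 1 without library 84 or 89, 2 without 90 and 8 without 81. In sorted against bulk libraries 5 rose and 3 fell of 16 tested in GL261 (34.5% of all genes passed), and 7 rose and 2 fell of 15 in CT2A (49.9%). Without GL261 bulk tumor 414 the GL261 count of 8 was 4.

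Other matricellular and Sparc-related genes were spread in both directions. Of 17 listed, 16 were tested in bulk tumors, with 5 higher and 1 lower in CT2A, and 13 in sorted cells, with 4 higher and 6 lower, and in neurosphere tumors, with 5 higher and 7 lower, against the same 23.4, 50.8 and 59.6% of all genes. The median log2 fold changes were 0.01, -0.32 and -1.10. Ccn4, a WNT-induced member of the CCN family, was higher by 6.89 (SE 0.47), 10.02 (SE 0.38) and 8.74 (SE 0.72) in bulk, sorted and neurosphere libraries, and the Sparc relative Fstl1 by 2.75 (SE 0.19), 3.50 (SE 0.15) and 3.84 (SE 0.18). Smoc1, a Sparc relative that antagonizes BMP signals, was lower by far, at -3.43 (SE 0.35), -9.03 (SE 0.36) and -9.85 (SE 0.41). Its relative Smoc2 was higher by 2.28 (SE 0.41), 7.49 (SE 0.44) and 4.76 (SE 0.66). Of the tenascins, Tnxb was lower in CT2A sorted cells (-5.29, SE 0.55) and in neurosphere tumors (-6.75, SE 0.59), and so was Tnr, the tenascin of perineuronal nets (-5.90, SE 0.89, and -4.82, SE 0.29), opposite in sign to Tnc in the same libraries. Tnn was higher in CT2A bulk tumors (4.76, SE 0.74). Of the 17 listed genes, 10 were tested between culture forms of each line. Ccn4 and Smoc2 were too low to be tested there in GL261, and Smoc1 and Tnxb in CT2A. In sorted and neurosphere libraries these 4 genes thus met the count minimum through the other line, and the size of their line differences is uncertain. In GL261 neurosphere tumors 1 rose (Tgfbi, a fasciclin-domain relative of Postn, 2.90, SE 0.47) and 1 fell (Smoc1, -0.97, SE 0.17), against 8.53% of all genes. In CT2A 0 of 10 passed with edgeR, against 0.167% of all genes. The GL261 count of 2 was 1 without library 90 and 0 without 89. In sorted against bulk libraries 4 rose and 6 fell of 15 in GL261 (34.5% of all genes passed), and 4 rose and 9 fell of 15 in CT2A (49.9%), with Ccn1 higher by 3.19 (SE 0.47) and 2.13 (SE 0.22).

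Over the 23 libraries, Thbs1 and Postn had the most similar patterns among the 10 genes. These libraries fall into groups that differ in line, sort and depth. Over all of them the Pearson correlation of log2(CPM + 1) was 0.971, and the gene most like each was Runx1, at 0.986 for Thbs1 and 0.972 for Postn. Of 10994 genes with a mean of at least 10 CPM, the closest to Spp1 were Plau (0.977) and Tgfb1 (0.959), to Thbs3 Pde7a (0.985) and Glis2 (0.984), to Tnc Wnt7b (0.958), and to Thbs2 Olfr1152 (0.965) and Masp1 (0.964). Thbs4 was closest to Scg2 (0.966), Ndn (0.964) and Slc32a1 (0.963), and Sparcl1 to Gnao1 (0.942). Sparc and Fn1 had weaker likenesses, to Fam210b (0.834) and to Ppfibp1 (0.898).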

How the data were processed

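RNA was sequenced from 8 bulk tumors and tumor cells sorted with magnetic beads from 15 tumors. The marker used for the sort is not reported here. The authors deposited Salmon estimated counts (expected counts), TPM and effective lengths for 116546 transcripts in each library, and RSEM (version 1.3.3, with STAR 2.7.7a) expected counts and TPM per gene. The submitters' processing notes give no Salmon version. The study's methods name separate kits for bulk and sorted libraries, whereas the labels give a single kit. Estimated counts were summed per gene and rounded, and 180 transcripts without a gene (0.0413 to 0.152% of reads) were left out. No column was left unmapped (0).

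Genes with a mean normalized count above 10 were tested in edgeR 4.0.16 (R 4.3.3, limma 3.58.1) by quasi-likelihood with TMM scaling, per comparison on its own groups, with Benjamini-Hochberg adjustment at 0.05 over all genes tested. The interactions used 4 groups each. The fit was tested on simulated data for the comparisons between lines, the GL261 culture forms and the culture form interaction, and not for the others. The outcome is not given here. Exon shares are the percent of TPM of coding transcripts with over 1500 coding bases that span the exon. Alternatives were DESeq2 1.42.0, its size factors, other count minimums, RSEM counts, thinned GL261 bulk libraries, an effective length offset, a fit over all 6 groups and each library left out. Exon shares from estimated reads in place of TPM were added after the data had been seen.

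The members and lists were chosen with earlier results of these data known. All 10 genes were named in every comparison, and of the receptor list (16 genes) and the other matricellular list (17 genes) up to 3 higher and 3 lower with the smallest p. Some of these were followed into comparisons where they were not among those 3. Genes of like pattern were the 3 with the highest Pearson r of log2(CPM + 1) among 10994 genes with a mean of at least 10 CPM. Marker lists covered macrophages and microglia, astrocytes, endothelium, pericytes and smooth muscle, neurons, oligodendrocytes and platelets.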

Additional observations from a re-analysis of the deposited data

Results flagged for a closer look

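A library far from the others of its group was found in 6 of 97 groups of values, where chance alone gives about 4.8 at 1 in 20. CT2A sorted cells and GL261 neurosphere tumors, with 3 libraries each, were too small for this check and were not screened. Thbs3 was at 14.4 CPM in GL261 bulk tumor 417 and at 17.4 to 18.0 CPM in the other GL261 bulk tumors. The exon of 81 bases of Postn was in 34.8% of the TPM of full-length coding transcripts that span it in CT2A bulk tumor 48 and in 18.9 to 21.3% in the others, and an exon of Thbs3 of 111 bases was, by the same measure, in 92.1% in CT2A neurosphere library 57 and in 100% in the others. The summed astrocyte markers were at 103 CPM in CT2A neurosphere library 59 (316 to 373 CPM in the others). The summed oligodendrocyte markers were at 311 CPM in CT2A neurosphere library 60 (29.6 to 54.7 CPM), and the platelet markers at 11.5 CPM in GL261 bulk tumor 405 (3.90 to 4.39 CPM).

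For 5 of the genes CT2A and GL261 were set apart to a different degree in different experiments, by the interaction test of edgeR. Between sorted cells and bulk tumors it was larger in sorted cells by 3.93 for Thbs2 (adjusted p = 2.61e-05), 1.55 for Thbs3 (adjusted p = 0.00788) and 2.37 for Tnc (adjusted p = 0.00963) on the log2 scale. Between neurosphere and adherent tumors it was -1.46 for Postn (adjusted p = 0.0324) and -3.41 for Spp1 (adjusted p = 0.00771).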

How the results depend on the processing

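Of 1459 values of the 10 genes under an alternative, 1336 kept their direction and their side of the threshold, 47 lost a call, 13 gained one and 63 changed sign. Bulk and sorted libraries differ in several ways at once, GL261 bulk tumors were the most deeply sequenced, and groups of 3 to 5 leave small differences undetected. No paired analysis was possible because the groups compared share no replicate numbers. The causes of the changes below were not tested.

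With a minimum absolute log2 fold change of 1, 2220 genes passed in bulk tumors, 4425 in sorted cells, 4963 in neurosphere tumors and 3584 between sorted and bulk CT2A. Between GL261 neurosphere and adherent tumors DESeq2 called 1873 genes and the fit over all 6 groups 1782, with 74.2% and 73.7% of calls upward against 88.9% (1167 genes) in the report. Between those of CT2A, where the report has 22 genes, DESeq2 called 302 (2 of the 10 genes), its size factors 35, no minimum count 87, the filterByExpr minimum 40 and the 6-group fit 57. For the line difference between culture forms DESeq2 called 1541 genes and 4 of the 10. Without a minimum count the median of all genes moved to -0.19 in bulk tumors and -0.15 in sorted cells.

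Leaving out a library gave 2474 to 4777 genes in bulk tumors, 5556 to 8922 in sorted cells, 6894 to 9110 in neurosphere tumors, 307 to 2435 and 0 to 191 between culture forms of GL261 and CT2A, 3917 to 6221 and 5456 to 7876 between sorted and bulk GL261 and CT2A, and 1435 to 2420 and 261 to 1267 for the 2 interactions. Of the 10 genes, 4 passed in bulk tumors in every such fit, 6 to 8 in sorted cells, 6 in neurosphere tumors, 1 to 2 and 0 to 1 between culture forms, 5 to 8 between sorted and bulk in either line, and 3 and 1 to 3 for the interactions.

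Changes of sign fell on differences near 0. In sorted cells Sparc was at -0.00024 with DESeq2 and its size factors, -0.0026 with no minimum count and -0.10 to 0.20 with a library left out. Between GL261 culture forms Sparc was at -0.02 (DESeq2, its size factors, no minimum count), -0.01 (filterByExpr), -0.07 (6 groups) and -0.09 to 0.18 with a library left out, and Thbs2 at -0.25 to 0.14. Between CT2A culture forms the effective length offset gave -0.01 for Fn1 and -0.11 for Thbs3, and leaving out a library gave -0.11 to 0.12 for Fn1, -0.19 to 0.12 for Spp1, -0.17 to 0.13 for Thbs1, -0.17 to 0.08 for Thbs2, -0.05 to 0.13 for Thbs3 and -0.17 to 0.26 for Tnc. The sorted against bulk interaction of Postn was -0.08 (DESeq2), -0.07 (its size factors), -0.12 (6 groups) and -0.21 to 0.30 with a library left out, with -0.51 to 0.10 for Sparcl1 and -0.03 to 0.56 for Spp1. Other such ranges were -0.44 to 0.08 for Fn1 and -0.58 to 0.01 for Sparcl1 in bulk tumors, -0.38 to 0.25 for Fn1 and -0.11 to 0.01 for Sparc in neurosphere tumors, -0.03 to 0.56 for Spp1 between sorted and bulk GL261, and -0.20 to 0.004 for Sparc and -0.17 to 0.30 for Thbs2 in the culture form interaction. In TPM in place of CPM the log2 ratio of Thbs3 was 1.60 in bulk tumors and 3.20 in sorted cells, in RSEM TPM it was 3.12 in sorted cells and that of Sparc in bulk tumors 0.57, and in reads in place of TPM the EDA share of GL261 neurosphere tumors was 12.0%.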
